A study of Mus musculus with 6 samples.

Results

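The T cell receptor complex and its coreceptors were represented by 10 genes, chosen by symbol and matched by Ensembl identifier among the 28914 genes of the deposited table. They are the CD3 chain genes Cd3e, Cd3d, Cd3g and Cd247, the coreceptor genes Cd4, Cd8a and Cd8b1, the fate factors Zbtb7b and Runx3, and Thy1, a T cell surface glycoprotein. RNA sequencing had been run on splenic CD4 T cells of NOD mice aged 12 weeks, a strain with spontaneous autoimmune diabetes, and the sorted cells were not stimulated further through their receptor. The 6 libraries form 3 groups of 2, all on the NOD background: cells overexpressing Blimp-1 (BTg), cells labelled as a Blimp1 knockout (CKO), and controls (WT). The labels name no promoter for the BTg transgene, no Cre driver and no count of mice behind a library, so p-values measure the spread between libraries, which may be technical.

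The alpha-beta T cell receptor is a heterodimer that binds peptide on MHC molecules. It signals through the associated CD3 epsilon, delta and gamma chains and the zeta chain encoded by Cd247. The coreceptor CD4 binds MHC class II and CD8, a dimer of alpha and beta chains, binds MHC class I, and both bring the kinase Lck to the receptor. In the thymus ThPOK, the product of Zbtb7b, directs cells to the CD4 lineage and represses CD8 genes, while Runx3 directs cells to the CD8 lineage and silences Cd4. Prdm1 encodes Blimp-1, which represses transcription in effector lymphocytes.

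The start regions of 6 of these genes are shown because they carry the chains and factors whose relative levels are described further on. Each run is the 250 bases before a RefSeq start on GRCm38.p6 (the upstream one of 2 for Zbtb7b and Runx3), written 5′ to 3′ on the gene's own strand. Capitals mark AGNGAAAG, which holds the GAAAG core of the sequence bound by Blimp-1, TGTGGT, a Runx motif, and GGAAGT, an Ets motif, each sought on both strands.
Cd3e, chr9:45009612-45009861, minus strand: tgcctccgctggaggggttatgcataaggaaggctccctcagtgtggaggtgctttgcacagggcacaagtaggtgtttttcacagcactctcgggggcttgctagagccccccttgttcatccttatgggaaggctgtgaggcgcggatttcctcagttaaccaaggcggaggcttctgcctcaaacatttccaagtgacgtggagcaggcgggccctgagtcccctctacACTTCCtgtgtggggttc
Cd3d, chr9:44981536-44981785, plus strand: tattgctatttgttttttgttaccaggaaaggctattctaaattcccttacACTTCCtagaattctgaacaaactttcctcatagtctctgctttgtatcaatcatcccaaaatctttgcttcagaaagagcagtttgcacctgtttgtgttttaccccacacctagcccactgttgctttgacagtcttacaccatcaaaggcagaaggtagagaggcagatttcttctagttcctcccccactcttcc
Cd3g, chr9:44980432-44980681, minus strand: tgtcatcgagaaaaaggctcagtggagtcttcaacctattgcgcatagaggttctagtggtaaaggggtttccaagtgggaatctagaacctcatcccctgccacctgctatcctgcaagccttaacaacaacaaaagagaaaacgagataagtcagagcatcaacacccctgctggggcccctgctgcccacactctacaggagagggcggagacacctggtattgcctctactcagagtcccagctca
Cd247, chr1:165788431-165788680, plus strand: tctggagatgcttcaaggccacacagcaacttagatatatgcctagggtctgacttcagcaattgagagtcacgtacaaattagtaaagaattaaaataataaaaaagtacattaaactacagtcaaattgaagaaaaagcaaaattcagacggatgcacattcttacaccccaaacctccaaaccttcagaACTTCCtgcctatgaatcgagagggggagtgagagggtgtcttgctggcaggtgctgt
Zbtb7b, chr3:89393379-89393628, minus strand: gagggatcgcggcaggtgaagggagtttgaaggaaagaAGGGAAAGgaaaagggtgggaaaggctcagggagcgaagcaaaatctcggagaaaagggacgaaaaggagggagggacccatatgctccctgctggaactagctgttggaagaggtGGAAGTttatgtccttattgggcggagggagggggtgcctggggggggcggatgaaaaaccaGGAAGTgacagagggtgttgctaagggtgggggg
Runx3, chr4:135120395-135120644, plus strand: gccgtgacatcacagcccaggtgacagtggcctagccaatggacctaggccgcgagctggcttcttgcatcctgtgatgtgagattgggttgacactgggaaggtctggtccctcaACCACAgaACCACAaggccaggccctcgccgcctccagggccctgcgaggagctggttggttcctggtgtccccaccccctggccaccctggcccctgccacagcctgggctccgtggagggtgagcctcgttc
RefSeq windows were matched for 7 of the 10 genes, and Cd4, Cd8b1 and Thy1 had no entry. Among 32851 windows of this length, AGNGAAAG stood in 7.3%, TGTGGT in 14% and GGAAGT in 19.7%. The Zbtb7b window held 1 AGNGAAAG match and 2 Ets matches, and the Runx3 window held 2 Runx matches, both on the opposite strand. The downstream windows of these genes, not shown, lacked those matches. That of Zbtb7b held only 1 Runx match, and that of Runx3 held none of the motifs. An Ets match stood once each in the Cd3e, Cd3d and Cd247 windows, and the Cd3g window held none of these letters. No capital run overlaps another, and a match describes the letters only. Cd3d and Cd3g lie head to head on chromosome 9, with 1355 bases between their annotated starts.

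The libraries held 14958458 to 17799091 reads on genes. Prdm1, the check of the labels, stood at 19.6 and 30.1 FPKM (reads per kilobase of gene length, scaled to library size) in BTg, at 0.849 and 0.669 in CKO and at 0.458 and 0.628 in WT. It was therefore not lower in CKO than in WT, and reads are summed over the whole gene, so the value cannot check a deletion of part of it. CKO therefore stands for the libraries labelled so, and any direction given for them depends on that label. Library CKO replicate 1 stood apart. Its 56 marker genes of B cells, plasma cells, neutrophils, monocytes, dendritic cells, NK cells, erythroid cells and basophils made up 2.07% of its reads, while CKO replicate 2 had 0.305%. These shares were 0.113 and 0.0933% in BTg and 0.132 and 0.29% in WT. Immunoglobulin segments took 6.99% of the reads of CKO replicate 1 and 0.704 to 1.8% in the other libraries. Neutrophil markers made up 1.28% of the reads of CKO replicate 1 and plasma cell markers 0.571%. Erythroid and dendritic cell markers were not highest there. Erythroid markers made up 0.14% in WT replicate 2, 0.089% in CKO replicate 2 and 0.0484% in CKO replicate 1. For dendritic cell markers these shares were 0.00425, 0.00381 and 0.00243%. The markers at 0 reads were Retnlg and Fcgr1 in BTg replicate 1 and Klra8 in CKO replicate 1.

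**Figure D1:**
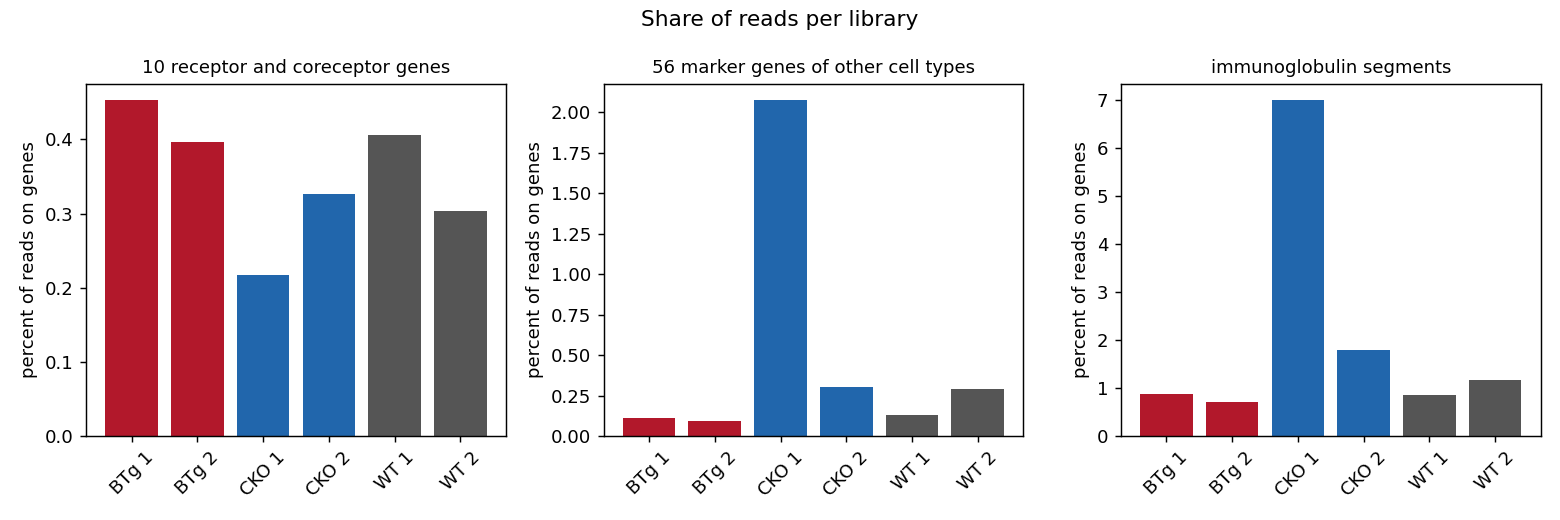
Percent of a library's reads on the 10 receptor and coreceptor genes (left), on 56 marker genes of other cell types (middle) and on immunoglobulin segments (right), 1 bar per library. CKO replicate 1 has the lowest bar on the left, at 0.217%, and the highest in the other panels, at 2.07% and 6.99%.

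The CD4 label held against the coreceptor genes in all 6 libraries. Cd4 (chromosome 6, 124864692 to 124888221 on GRCm38, minus strand) had 14344 and 14643 reads in BTg, 9064 and 15720 in CKO, and 15770 and 11788 in WT. Cd8a, the CD8 alpha chain, had 6 and 7 reads in BTg, 5 and 13 in CKO, and 3 and 7 in WT. Cd8a transcript was thus near the limit of detection everywhere. Of the reads on Cd8a and Cd4 together, Cd8a took 0.0418% (95% exact interval 0.0153 to 0.091) and 0.0478% (0.0192 to 0.0984) in BTg, and 0.0551% (0.0179 to 0.129) and 0.0826% (0.044 to 0.141) in CKO. In WT it took 0.019% (0.00392 to 0.0556) and 0.0593% (0.0239 to 0.122). These intervals cover counting error only, and they overlap across the groups, so no difference in Cd8a was detectable at this depth.

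Cd8b1, the CD8 beta chain, was low but stood far above the alpha chain. It had 73 and 62 reads in BTg, 44 and 105 in CKO, and 213 and 95 in WT. Per kilobase of merged exon, the Cd8b1 level was 29.8 and 21.7 times that of Cd8a in BTg, 21.6 and 19.8 times in CKO, and 174 and 33.3 times in WT, each over 3 to 13 Cd8a reads. The genes lie on the same strand 35933 bases apart on chromosome 6, and no other annotated gene overlaps either. Cd8b1 was highest in WT replicate 1. On the FPKM scale it stood at 0.325 and 0.282 in BTg, 0.168 and 0.403 in CKO, and 0.814 and 0.423 in WT, so both WT libraries lay above the other 4, WT replicate 2 by little. Cd8a and Cd8b1 did not reach the filter of 1 FPKM in 2 libraries. In limma voom on recovered reads, where Cd8b1 had enough reads, its log2 difference was -0.97 (SE 0.56) for BTg against WT with adjusted p = 1, and -1.19 (SE 0.56) for CKO against WT with adjusted p = 0.851. Neither passed.

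Cd4 itself stood at 99.4 and 103 FPKM in BTg, 53.8 and 93.7 in CKO, and 93.7 and 81.7 in WT. Both BTg libraries were above both WT libraries, and the CKO value came from a low and a high library. For BTg against WT the log2 difference, on the log2(FPKM + 1) scale, was 0.21 (SE 0.36; 95% interval -0.67 to 1.1), with limma adjusted p = 1. For CKO against WT it was -0.3 (SE 0.36; -1.18 to 0.59), with limma adjusted p = 1. Neither differed beyond the spread between libraries. In sorted bulk cells, fewer CD4 cells and less RNA per cell cannot be told apart.

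**Figure D2:**
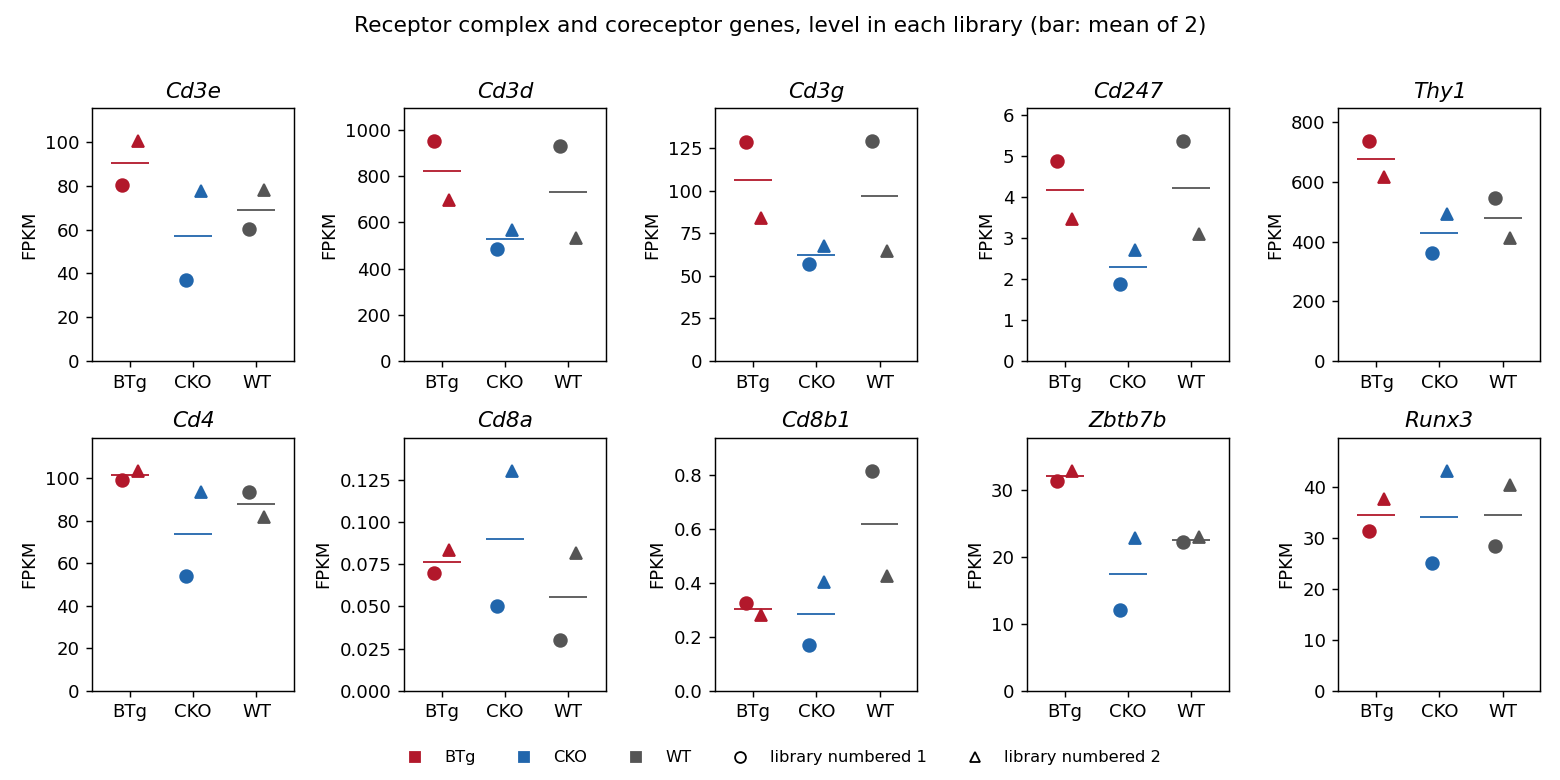
FPKM of each gene (linear axes from 0) in each library, by group, with a bar at the mean of 2 libraries. Circles are libraries numbered 1 and triangles libraries numbered 2. The CKO circle lies below the CKO triangle in every panel, and Cd8a and Cd8b1 stay under 1 FPKM.

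None of the 8 genes that entered the test passed it in any comparison. All 8 reached at least 1 FPKM in all 6 libraries, so no group decided their inclusion. The test was limma over 10798 genes with Benjamini-Hochberg adjustment and a threshold of 0.05. For BTg against WT 0 of 8 passed, where 0.0185% of all genes did, and 0 of 8 had unadjusted p under 0.05. For CKO against WT 0 of 8 passed beside 0% of all genes, again with 0 at unadjusted p under 0.05. For BTg against CKO 0 of 8 passed beside 0.0185%, with 1 at unadjusted p under 0.05. Limma voom on recovered reads passed 0 of these 8 in each comparison, while over all genes it passed 4 for BTg against WT, 0 for CKO against WT and 7 for BTg against CKO. The comparisons share libraries, so their values are not independent.

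Among the CD3 chain genes only Cd3e had both BTg libraries above both WT libraries. Cd3e (chromosome 9, 44998740 to 45009627, minus strand), encoding CD3 epsilon, a chain present in each CD3 dimer with delta or gamma, stood at 80.2 and 100.3 FPKM in BTg, 36.9 and 77.5 in CKO, and 60.1 and 78.0 in WT. BTg lay above both other groups, while CKO and WT overlapped. The log2 difference for Cd3e was 0.38 (SE 0.43; -0.67 to 1.43) for BTg against WT and -0.35 (SE 0.43; -1.4 to 0.7) for CKO against WT, each with limma adjusted p = 1.

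Cd3d (44981786 to 44987339, plus strand), the delta chain, stood at 950.4 and 697 FPKM in BTg, 486 and 566 in CKO, and 929.7 and 532 in WT. The WT libraries lay farther apart than any pair of group means. For Cd3d the log2 difference was 0.21 (SE 0.41) for BTg against WT and -0.42 (SE 0.41) for CKO against WT, each with limma adjusted p = 1. Cd3g (44969572 to 44980431, minus strand), the gamma chain, stood at 129 and 83.9 FPKM in BTg, 57.0 and 67.7 in CKO, and 129 and 64.7 in WT. Again the spread within WT covered the values of the other groups except CKO replicate 1. For Cd3g the log2 difference was 0.18 (SE 0.44) for BTg against WT and -0.55 (SE 0.44) for CKO against WT, each with limma adjusted p = 1. Without WT replicate 1 the CKO against WT difference was -0.021 for Cd3d and -0.058 for Cd3g, and without WT replicate 2 it was -0.82 and -1.04.

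Cd247 (chromosome 1, 165788681 to 165877277, plus strand), the zeta chain, carries most of the activation motifs of the complex. It stood at 4.87 and 3.46 FPKM in BTg, 1.87 and 2.70 in CKO, and 5.35 and 3.09 in WT. It was the only tested gene of the 8 with both CKO libraries below both WT libraries, a pattern met by 8.96% of all genes tested. The log2 difference was -0.64 (SE 0.30; -1.38 to 0.09) for CKO against WT and 0.01 (SE 0.30; -0.73 to 0.74) for BTg against WT, each with limma adjusted p = 1. Of its 5329 exon bases, 3007 are shared with Pou2f1 on the opposite strand, and no strand setting is given, so part of its reads is uncertain. Pou2f1 had 833 and 1387 reads in BTg, 607 and 1367 in CKO, and 992 and 1275 in WT. Cd247 had 5971 and 4158 reads in BTg, 2680 and 3850 in CKO, and 7649 and 3789 in WT. Cd3e shares 135 of 4080 exon bases with the antisense gene Gm48719, which had 47 to 252 reads.

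Ratios of the other CD3 chains to Cd3e separated by library number and overlapped between genotypes. Per kilobase of merged exon, the Cd3g to Cd3e ratio was 2.93 and 1.53 in BTg, 2.82 and 1.59 in CKO, and 3.91 and 1.51 in WT, with replicate 1 given before replicate 2. Every library numbered 1 was above every library numbered 2, and the groups overlapped. The same held for Cd3d to Cd3e, at 3.42 and 2.01 in BTg, 3.8 and 2.11 in CKO, and 4.47 and 1.97 in WT. Cd247 to Cd3e followed, at 0.801 and 0.455 in BTg, 0.669 and 0.46 in CKO, and 1.17 and 0.523 in WT. Thy1 to Cd3e and Cd4 to Cd3e split likewise. Of the 7 other tested genes of this set, 5 had a ratio to Cd3e that separated the numbers in this direction, beside 20.6% of all genes tested. The labels do not say what the number stands for, and its part in these ratios was not tested.

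Ratios to Cd3d were computed after the other ratios had been seen and are a description. The Cd3g to Cd3d ratio was 0.855 and 0.76 in BTg, 0.74 and 0.756 in CKO, and 0.876 and 0.768 in WT, so that CKO lay below both other groups, by little from the libraries numbered 2. The Cd247 to Cd3d ratio was 0.234 and 0.227 in BTg, 0.176 and 0.218 in CKO, and 0.263 and 0.265 in WT. Its groups did not overlap, with CKO lowest and WT highest, and part of the Cd247 reads is uncertain as given above. For both ratios, the share of all genes that would part the groups so over Cd3d was not counted. Single levels show the same split by number in BTg and WT. Number 1 was above number 2 in both groups for 4 of 8 genes, Cd3d, Cd3g, Cd247 and Thy1, beside 22.8% of all genes. It was below in both for 3, Cd3e, Zbtb7b and Runx3, beside 55.3%. Cd3g in replicate 1 was 1.53 times replicate 2 in BTg and 1.99 times in WT, and Cd3e was 0.8 and 0.771 times. In CKO both genes were lower in replicate 1, at 0.842 times for Cd3g and 0.477 times for Cd3e.

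**Figure D3:**
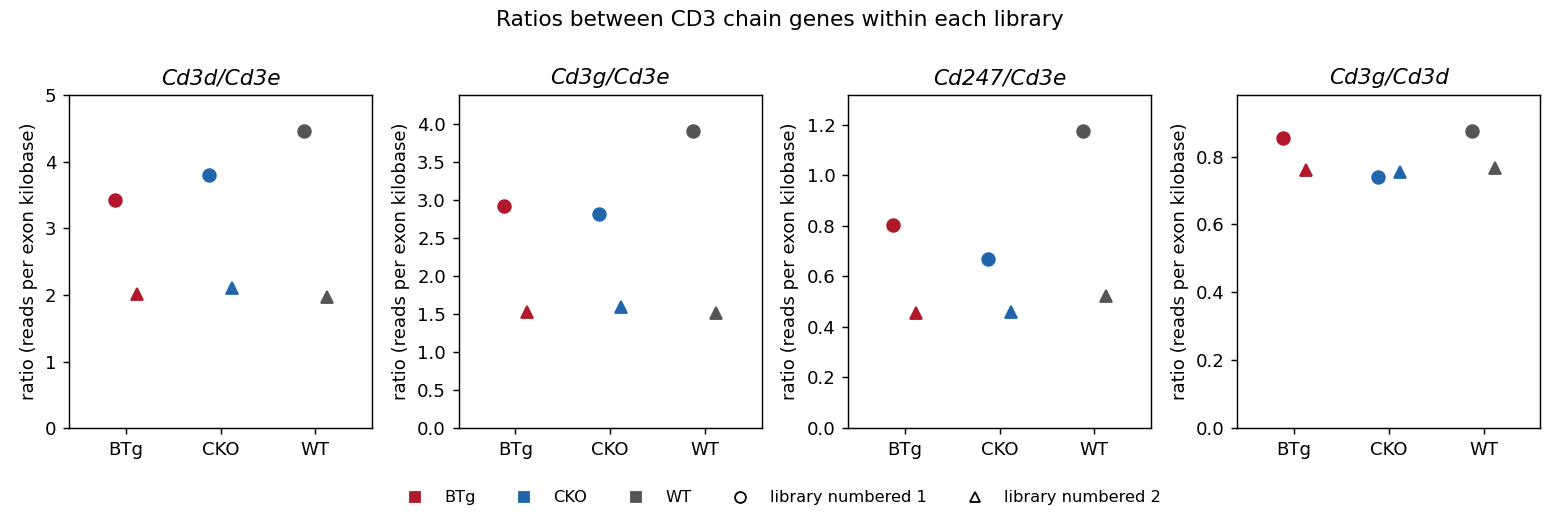
Ratios between CD3 chain genes in each library, as reads per kilobase of merged exon (linear axes from 0), by group. Circles (libraries numbered 1) lie above all triangles (numbered 2) in the first 3 panels, as for Cd3g to Cd3e at 2.82 to 3.91 against 1.51 to 1.59, and the Cd3g to Cd3d values lie between 0.74 and 0.876, lowest in CKO.

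Genes most like these in pattern were named by Pearson correlation of log2(FPKM + 1) over the 6 libraries, as a description. Those most like Cd3e were Ifnar1, Wasf2 and Uckl1, with r = 0.999 for each (Spearman rho 0.943 for each), and 1100 genes exceeded 0.95. Between Cd3e and its partner chains r was 0.349 for Cd3d, 0.307 for Cd3g and 0.459 for Cd247. Without CKO replicate 1 these were -0.33, -0.41 and -0.50, so their sign rests on that library. For Cd3g, added after its values were seen, r with Cd3d was 0.997 and with Cd247 0.958. Those most like Cd4 were Rab3gap1, Inpp4b and Arl5c, with r = 0.997, 0.995 and 0.994 (rho 1, 1 and 0.886). The points share library CKO replicate 1, the lowest for each of these genes. Without it r with Cd4 was still 0.972 for Rab3gap1, 0.971 for Inpp4b and 0.972 for Arl5c. With Cd3e it was 0.997 for Ifnar1, 0.994 for Wasf2 and 0.994 for Uckl1. Between Cd4 and Cd3e r was 0.407 without that library, and 0.896 with it.

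Thy1 (chromosome 9, 44043384 to 44048579, plus strand), anchored in the membrane of T cells, stood at 736 and 616 FPKM in BTg, 363 and 494 in CKO, and 547 and 413 in WT. BTg lay above both other groups. The log2 difference for Thy1 was 0.5 (SE 0.36; -0.38 to 1.38) for BTg against WT and -0.17 (SE 0.36; -1.05 to 0.71) for CKO against WT, each with limma adjusted p = 1.

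Per kilobase of merged exon, scaled to library size, the mean over the 6 libraries was 228.9 for Cd3d, 218 for Thy1, 205.6 for Cd4 and 184.4 for Cd3g. These 4 were not separated beyond their spread, with SDs of 67.1, 56.3, 42.5 and 67.6, and each was above the next in 4 of 6 libraries up to Cd3g. Cd3e followed at 82.5 (SD 24.5) and was below Cd3g in all 6 libraries. Cd247 at 53.7 (SD 19.9) and Zbtb7b at 52.4 (SD 16.3) were not separated, with 3 of 6 libraries each way. The Cd247 level and its place in the order are uncertain, since 3007 of its 5329 exon bases are shared with Pou2f1. Runx3 was at 16.8 (SD 3.49), Cd8b1 at 3.99 (SD 2.2) and Cd8a at 0.115 (SD 0.0529), each below its neighbour in all 6 libraries. The order depends on exon annotation, since merged exons include those of minor transcripts.

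Zbtb7b, the CD4 fate factor ThPOK (chromosome 3, 89377644 to 89394776, minus strand), had the largest log2 difference between BTg and CKO among the 8 tested genes with all 6 libraries, but not without CKO replicate 1, where it was 0.48 beside 0.61 for Cd3g and 0.52 for Cd3d. It stood at 31.4 and 32.9 FPKM in BTg, 12.1 and 22.8 in CKO, and 22.2 and 22.9 in WT. The BTg libraries lay close together and above all others, and CKO replicate 2 lay with WT. For BTg against WT the log2 difference was 0.49 (SE 0.34; -0.35 to 1.33), with limma adjusted p = 1. For CKO against WT it was -0.42 (SE 0.34; -1.26 to 0.43), with limma adjusted p = 1. For BTg against CKO it was 0.91 (SE 0.34; 0.07 to 1.75), with unadjusted p = 0.0385 and limma adjusted p = 0.538 over all genes, which did not pass. Between the libraries numbered 2, which leave out CKO replicate 1, that difference was 0.51.

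Runx3, the CD8 fate factor (chromosome 4, 135120652 to 135177990, plus strand), also acts in type 1 helper cells. It stood at 31.4 and 37.6 FPKM in BTg, 25.01 and 43.1 in CKO, and 28.5 and 40.4 in WT, so that each group covered much the same range. Its log2 difference was 0.02 (SE 0.37; -0.89 to 0.92) for BTg against WT and -0.04 (SE 0.37; -0.95 to 0.86) for CKO against WT, each with limma adjusted p = 1. Gene sums do not separate the products of its distal and proximal promoters.

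The ratio of Runx3 to Zbtb7b, per kilobase of merged exon, was 0.224 and 0.257 in BTg, 0.463 and 0.425 in CKO, and 0.288 and 0.395 in WT. The groups did not overlap, with BTg lowest and CKO highest, and CKO replicate 1 lay beside CKO replicate 2. Of the 10386 other genes tested that had reads in every library, set under Runx3 in the same way, 6.64% gave this order without overlap. Of the 8 ratios planned, Cd8b1 to Cd8a also kept the 3 groups apart, but on few reads, and of the 5 added after values were seen Cd247 to Cd3d did, as given above. With 2 libraries against 2, an exact two-sided permutation test cannot go below 0.333, so no test is given. The Zbtb7b to Cd4 ratio, computed after its parts had been seen, was 0.293 and 0.295 in BTg, 0.209 and 0.225 in CKO, and 0.219 and 0.261 in WT. BTg lay above both other groups, and the share of all genes with that pattern over Cd4 was not counted.

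**Figure D4:**
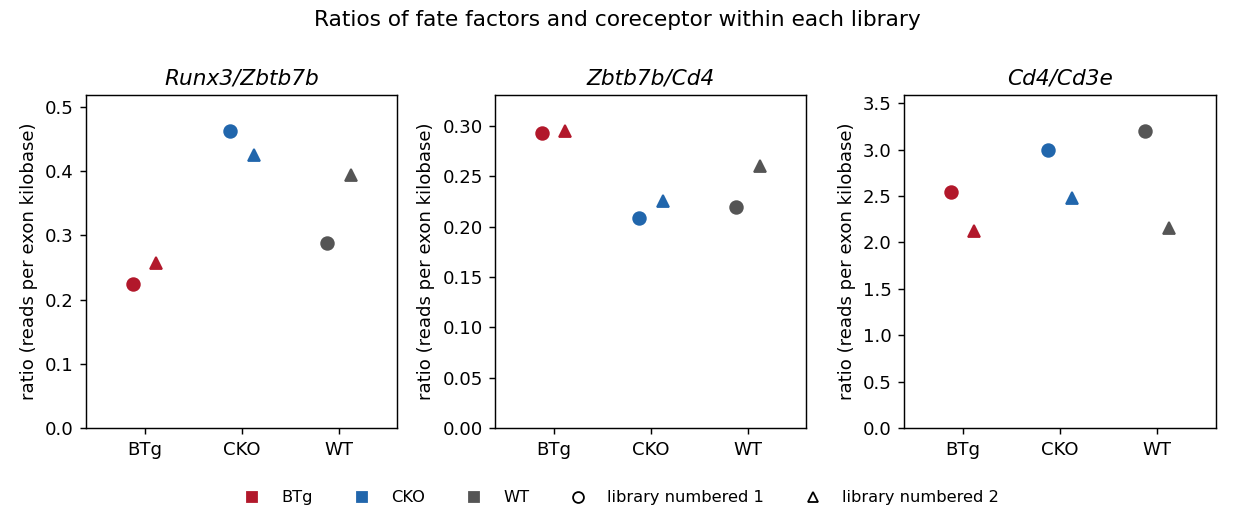
Ratios of Runx3 to Zbtb7b, Zbtb7b to Cd4 and Cd4 to Cd3e in each library, as reads per kilobase of merged exon (linear axes from 0), by group. In the left panel the BTg points, at 0.224 and 0.257, are lowest and the CKO points, at 0.463 and 0.425, highest. The Cd4 to Cd3e values overlap between groups.

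BTg against CKO sets the group overexpressing Blimp-1 beside the group labelled Blimp-1-deficient, without WT. All 8 tested genes had higher means in BTg, with a median log2 difference of 0.66, while 56.1% of all 10798 genes were higher and their median was 0.06. In 7 of 8, all but Runx3, both BTg libraries lay above both CKO libraries, a pattern of 17.8% of all genes. Log2 differences ranged from 0.06 (SE 0.37) for Runx3 to 0.91 for Zbtb7b, with 0.73 (SE 0.43) for both Cd3e and Cd3g, and 0.65 (SE 0.30) for Cd247. Limma adjusted p lay between 0.538 and 0.961. Without CKO replicate 1, 7 of 8 were higher and the median was 0.46, beside 40.9% of all genes higher, and the difference for Cd3e was 0.21.

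For BTg against WT 8 of 8 were higher, with a median of 0.21 beside 0.02 for all genes, of which 54.5% were higher. In 4 of 8, Cd3e, Cd4, Zbtb7b and Thy1, the BTg libraries lay above both WT libraries, beside 14.7% of all genes. Without WT replicate 2, or without BTg replicate 1, 5 of 8 were higher, beside 66.4% and 59.3% of all genes. For CKO against WT 8 of 8 were lower, with a median of -0.38 beside -0.03 for all genes, of which 45.4% were higher. Without CKO replicate 1, 5 were higher and 3 lower, and the median was 0.03, beside 67.4% of all genes higher. In that library all 8 genes had the lowest value of the 6, as did 44.5% of all genes tested. The marker and immunoglobulin shares given above moved with it, and their part in these values was not tested. Between libraries numbered 2 the CKO against WT differences lay between -0.14 for Cd247 and 0.26 for Thy1.

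**Figure D5:**
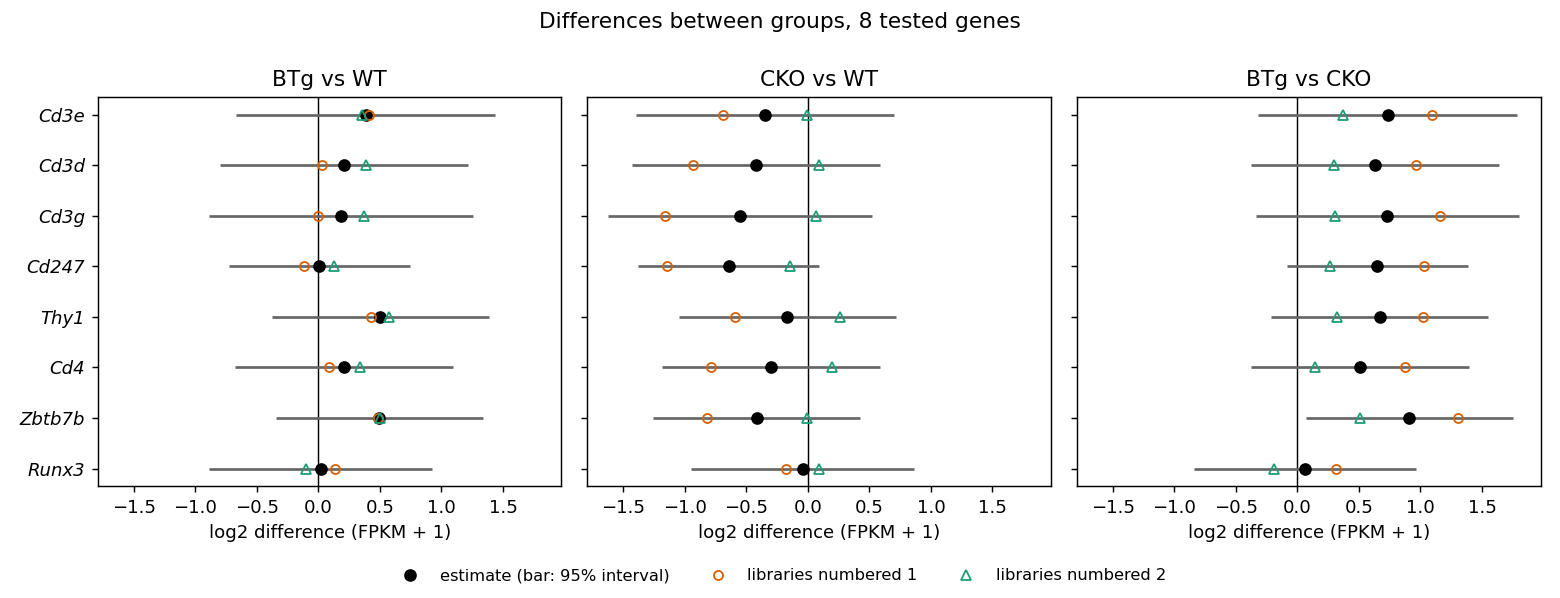
Log2 difference on the log2(FPKM + 1) scale for the 8 tested genes in 3 comparisons, as the limma estimate with its 95% interval (black), and between libraries of the same number (open circles 1, open triangles 2). All intervals include 0 except that of Zbtb7b for BTg against CKO, at 0.07 to 1.75, and for CKO against WT the triangles lie near 0.

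Other genes of the receptor were read from 4 lists, and with all 6 libraries 0 genes of any list passed in any comparison. Counts and medians with each library left out were added after the data were seen. With CKO replicate 2 left out, CKO replicate 1 stood alone for its group. The median log2 difference for BTg against CKO was then 0.64 for the fate list, 0.76 for the signalling list and -0.2 for the cytotoxic list. Over all genes tested it was 0.18. Of the T cell receptor constant regions, all 7 were tested. Of these, 3 were higher in BTg than in WT and 1 was higher in CKO than in WT. Medians were -0.44 and -0.27, beside 0.02 and -0.03 over all genes tested. The 3 higher in BTg were the alpha and beta chain regions, at 0.13, 0.0018 and 0.015 (SE 0.39 to 0.49). The gamma and delta regions, all at low FPKM, were lower in BTg. For CKO against WT the alpha and beta regions had -0.5, -0.42 and -0.5, with the same SEs. Without CKO replicate 1, 3 of the 7 regions were higher in CKO than in WT, beside 67.4% of all genes. Without BTg replicate 1 or WT replicate 2, 0 of 7 were higher in BTg than in WT, beside 59.3% and 66.4%. Tcrg-C2, a gamma chain constant region, stood at 1.04 and 1.38 FPKM in BTg, 2.09 and 3.44 in CKO, and 3.54 and 3.36 in WT. The BTg libraries were the lowest. Its log2 difference was -1.02 (SE 0.24) for BTg against WT, with limma adjusted p = 1. Tcrg-C4 likewise had -0.56 (SE 0.25) with limma adjusted p = 1. For BTg against CKO Tcrg-C1 had -0.84 (SE 0.30) with limma adjusted p = 0.512. Gamma constant regions resemble each other, so reads may be divided between them uncertainly. Trac, the alpha chain constant region, stood at 182 and 151 FPKM in BTg, 95.2 and 120.4 in CKO, and 200.1 and 115 in WT, lowest in CKO replicate 1.

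Of the surface partners and proximal signalling genes of the receptor, 19 of 20 were higher in BTg than in WT and 18 of 20 lower in CKO than in WT, with medians of 0.22 and -0.21. Of all genes tested, 54.5% were higher in BTg than in WT and 45.4% in CKO than in WT. Without CKO replicate 1, whose marker shares stood apart, 13 of 20 were higher in CKO than in WT, with a median of 0.16, beside 67.4% of all genes. Their part in the count was not tested. Grap2, an adaptor that links LAT to SLP-76, stood at 28.8 and 32.1 FPKM in BTg, 5.88 and 19.0 in CKO, and 22.4 and 21.4 in WT, with a log2 difference of 1.42 (SE 0.50) for BTg against CKO and limma adjusted p = 0.512. Lcp2, the adaptor SLP-76, had a log2 difference of 0.4 (SE 0.27) for BTg against WT with limma adjusted p = 1. For Grap2 CKO replicate 1 was the lowest library.

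Of the other factors of CD4 and CD8 fate, 14 of 17 tested were higher in BTg than in WT and 15 of 17 lower in CKO than in WT, with medians of 0.15 and -0.12, beside the same shares of all genes. Leaving out CKO replicate 1, 9 of 17 were higher in CKO than in WT, with a median of 0.03, beside 67.4% of all genes. Satb1, a chromatin organizer of thymocytes, stood at 12.6 and 14.0 FPKM in BTg, 3.05 and 7.32 in CKO, and 9.2 and 10.5 in WT. Its log2 difference was 1.3 (SE 0.37) for BTg against CKO, with limma adjusted p = 0.445, and -0.9 (SE 0.37) for CKO against WT, with limma adjusted p = 1. Lef1, a partner of TCF-1, stood at 4.46 and 5.16 FPKM in BTg, 0.84 and 2.96 in CKO, and 4.02 and 4.39 in WT, with 1.1 (SE 0.37) for BTg against CKO and limma adjusted p = 0.494. Gata3, needed for the CD4 lineage, had 0.38 (SE 0.26) for BTg against WT with limma adjusted p = 1.

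Genes of CD8 and cytotoxic T cells did not share one direction. Of 15, 9 were tested, with 4 higher and 5 lower in BTg than in WT (median -0.24), and 6 higher and 3 lower in CKO than in WT (median 0.15). Of all genes tested, 54.5% were higher in BTg than in WT (median 0.02) and 45.4% in CKO than in WT (median -0.03). When CKO replicate 1 was left out, 8 were tested, with 4 higher and 4 lower in each of these comparisons. Of all genes, 55.1% were then higher in BTg than in WT and 67.4% in CKO than in WT. Gzmk, a granzyme, stood at 0.205 and 0.101 FPKM in BTg, 1.83 and 2.47 in CKO, and 0.565 and 0.191 in WT, with a log2 difference of -1.44 (SE 0.26) for BTg against CKO and limma adjusted p = 0.239. Eomes, a transcription factor of cytotoxic and memory cells, had -1.3 (SE 0.28), with limma adjusted p = 0.299, and -0.85 (SE 0.28) for BTg against WT, with limma adjusted p = 1. For CKO against WT Gzmk had 1.2 (SE 0.26), with limma adjusted p = 0.863. Gzmk reached 1 FPKM only in CKO, so that group alone decided that it was tested. Its differences from CKO are a description. Prf1, encoding perforin, stood the other way, at 10.1 and 9.76 FPKM in BTg, 1.86 and 4.51 in CKO, and 7.50 and 5.6 in WT. Klrd1, encoding the NK receptor chain CD94, had 0.6 (SE 0.20) for BTg against WT, with limma adjusted p = 1. None of these passed, beside Cd8a at 3 to 13 reads in every library.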

How the data were processed

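Per the labels' protocols, TRIzol was used to isolate the RNA and the NEBNext Ultra kit to build 6 libraries from spleen CD4 T cells. The submitters' processing notes list GRCm38 and the tools featureCounts 1.6.0, HISAT2 2.1.0 and Trimmomatic 0.38, but no annotation release, strand setting or filter. The authors deposited 1 table of FPKM values. All 28914 identifiers were matched to GENCODE M21 for names and positions.

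When each gene's length is set to the median span its transcripts cover on the genome, introns included, 100.0% of deposited FPKM values above 0 gave whole reads within 0.01, and those reads are used for counts and for levels per kilobase of merged exon. Levels of different genes are compared only on that exon scale. Genes reaching 1 FPKM in at least 2 libraries were kept, their log2(FPKM + 1) was taken, and 6 libraries entered 1 fit without a block (R 4.3.3, limma 3.58.1, eBayes with a trend), with Benjamini-Hochberg adjustment over all genes. This scale understates changes of low genes. The fit was tested on simulated data. Intervals for shares are exact binomial, computed with scipy 1.17.1, and figures were drawn with matplotlib 3.10.9.

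Groups and numbers come from the titles. Both BTg titles end in 1, so number 2 rests on the name in brackets. The genes and lists were chosen with earlier results of these data known. Named genes are the 10 genes, Prdm1, per list and comparison up to 3 that pass or else the 2 with the smallest p, and the 3 most like Cd4 and Cd3e (Cd8a did not reach the filter). A gene that this rule names is not reported here. Alternatives were another pseudocount, no filter, centring, quantile normalization, no trend, a block, exon length, voom on recovered reads and leaving out each library.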

Additional observations from a re-analysis of the deposited data

How the results depend on the processing

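With 2 libraries a group only large differences can pass. No gene of the set passed under any alternative. Log2 differences kept their direction in all but 17 of 348 recomputed values (326 held, and 5 of Cd8b1 moved with exon length or voom), and each reversal came from leaving out 1 library. Many of the 348 could not change, so the count does not measure stability. Fits without a trend, with a block or without a filter return the same differences. Leaving out a library also leaves the comparison between the other groups as it was. Leaving out each library, CKO against WT ranged from -0.87 to 0.18 for Cd3e, -0.69 to 0.098 for Cd4, -0.84 to 0.014 for Zbtb7b, -0.43 to 0.34 for Runx3 and -0.39 to 0.055 for Thy1. It ranged from -0.82 to -0.021 for Cd3d, -1.04 to -0.058 for Cd3g and -0.96 to -0.33 for Cd247. BTg against WT ranged from -0.19 to 0.61 for Cd3d, -0.31 to 0.67 for Cd3g, -0.31 to 0.32 for Cd247 and -0.23 to 0.26 for Runx3, and BTg against CKO from -0.32 to 0.44 for Runx3, 0.21 to 1.26 for Cd3e, 0.11 to 0.90 for Cd4 and 0.48 to 1.34 for Zbtb7b. For Zbtb7b in BTg against CKO, limma adjusted p ranged from 0.0724 without CKO replicate 2 to 1 over the alternatives.

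Over all genes, CKO against WT gave 0 calls and 65 without a filter. BTg against WT gave 2, with 46 without a filter, 4 by voom, and 0 with quantile normalization or a replicate block. BTg against CKO gave 2, with 81 without a filter, 9 with exon length, 7 by voom, and 0 with quantile normalization or a replicate block. Leaving out each library gave 0 to 67 for CKO against WT, 0 for BTg against WT and 0 to 238 for BTg against CKO, the highest without CKO replicate 2. The cause was not tested. With the replicate block 0 genes of the set passed. Across 10798 genes the deviations of same-numbered libraries correlated at 0.47 between BTg and WT, 0.17 between CKO and WT and 0.46 between BTg and CKO. The labels give the number no meaning, so it was not used as a pairing. With the deposited length in place of exon length, 42 of 48 ratios moved by more than the spread between replicates, by 1 factor for all libraries of a ratio.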
